A study of Rattus norvegicus with 12 samples.

Results

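Arginine is made, spent and broken down in the kidney by a small group of enzymes, and 10 of their genes were followed here in rat kidney: Ass1 and Asl, which make arginine, Gatm, Agmat, Arg1 and Arg2, which belong to the creatine, agmatine and urea branches, Nos1, Nos2 and Nos3, which make nitric oxide (NO), and Ddah1, which clears an inhibitor of NO synthesis. The members were the rows with these symbols in the deposited expression tables. All 10 had 1 row each among the 22132 rows of the control and adenine table, and 9 had 1 row each among the 32623 rows of the sham and UUO table, while Nos2 was not analysed there. RNA from the kidneys of 12 male Sprague-Dawley rats, 8 weeks old at purchase and with no engineered allele, had been sequenced in 4 groups of 3 rats. The control group received saline by gavage and the adenine group adenine at 220 mg/kg per day, both for 3 weeks. The sham group had surgery without ligation and the UUO group had the left ureter tied (unilateral ureteral obstruction), with kidneys taken after 2 weeks. Both models lead to renal fibrosis, and the question for these genes was how the enzymes of arginine use differ from their reference group in each model.

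As background, the kidney takes up citrulline from the blood and the proximal tubule turns it into arginine, which supplies much of the body. The same tubule carries out the first step of creatine synthesis with Gatm (glycine amidinotransferase), which moves the amidino group of arginine onto glycine. Arginase splits arginine into ornithine and urea, and NO synthases turn it into citrulline and NO with tetrahydrobiopterin as a cofactor.

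Expression was given as FPKM, a fragment count corrected for the length of the transcript and for how many fragments were mapped, so levels of different genes within a table can be set side by side. The number of reads per kidney is unknown. FPKM summed to between 564972 and 582725 in control kidneys, 468389 and 487770 in adenine kidneys, 619664 and 630244 in sham kidneys, and 528811 and 539011 in UUO kidneys. The kidney label was checked against marker genes. All 8 proximal tubule markers were listed in both tables, and their summed FPKM was 1538 to 2324 in control kidneys and 2175 to 2523 in sham kidneys. The sum was 176.4 to 509.6 in adenine kidneys and 289 to 553 in UUO kidneys. Of these 8 markers, 5 fell in each model, where 19.9% of all tested rows fell with adenine and 14.4% with UUO. Slc5a12 rose in the adenine model. The 7 macrophage markers rose in both models, where 39.6% of all tested rows rose with adenine and 56.1% with UUO. Their sums were 17.7 to 21.6 in control, 472 to 759 in adenine, 18.8 to 26.9 in sham and 209 to 248 in UUO kidneys. The part of this shift in the changes below was not tested, and in RNA of kidney tissue fewer cells of a type and less RNA per cell cannot be told apart. Which part of each kidney was taken is not stated.

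Changes were tested within each table with limma on log2(FPKM + 0.1), for rows that reached an FPKM of 0.5 in 3 or more of 6 kidneys, with Benjamini-Hochberg adjustment across every row tested. A gene rose or fell where adjusted p was under 0.05, and it was a DEG where its log2 fold change was also at least 2 in size. The added 0.1 understates the change of genes with low FPKM. A two-sided exact permutation test of 3 kidneys against 3 cannot give a p below 0.1, the value for groups that do not overlap.

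In the adenine model 8 of the 10 members were tested, of which 5 fell (Agmat, Ass1, Asl, Arg2 and Ddah1), where 19.9% of all 15029 tested rows fell. Arg1 alone of the 8 rose, where 39.6% of all rows did, and Gatm and Nos3 did not pass the test. In the UUO model 6 of 8 tested members fell (Gatm, Agmat, Ass1, Asl, Arg2 and Ddah1), against 14.4% of all 15043 tested rows. Nos3 rose there, against 56.1% of all rows, and Arg1 did not pass the test. DEGs of the adenine model were Arg1, upwards as 10.7% of all rows were, and Agmat, downwards as 5.03% were. DEGs of the UUO model were Gatm, Agmat and Arg2, downwards as 4.21% of all rows were, and no member was among the 13.2% that were DEGs upwards. The median log2 fold change of the 8 tested members was -1.46 with adenine and -1.76 with UUO, beside 0.30 and 0.62 for all tested rows. Median-of-ratios scaling brought the medians of all rows to 0.0096 and 0.033, and the same 5 and 6 members fell under it, with Nos3 also falling in the adenine model.

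**Figure D1:**
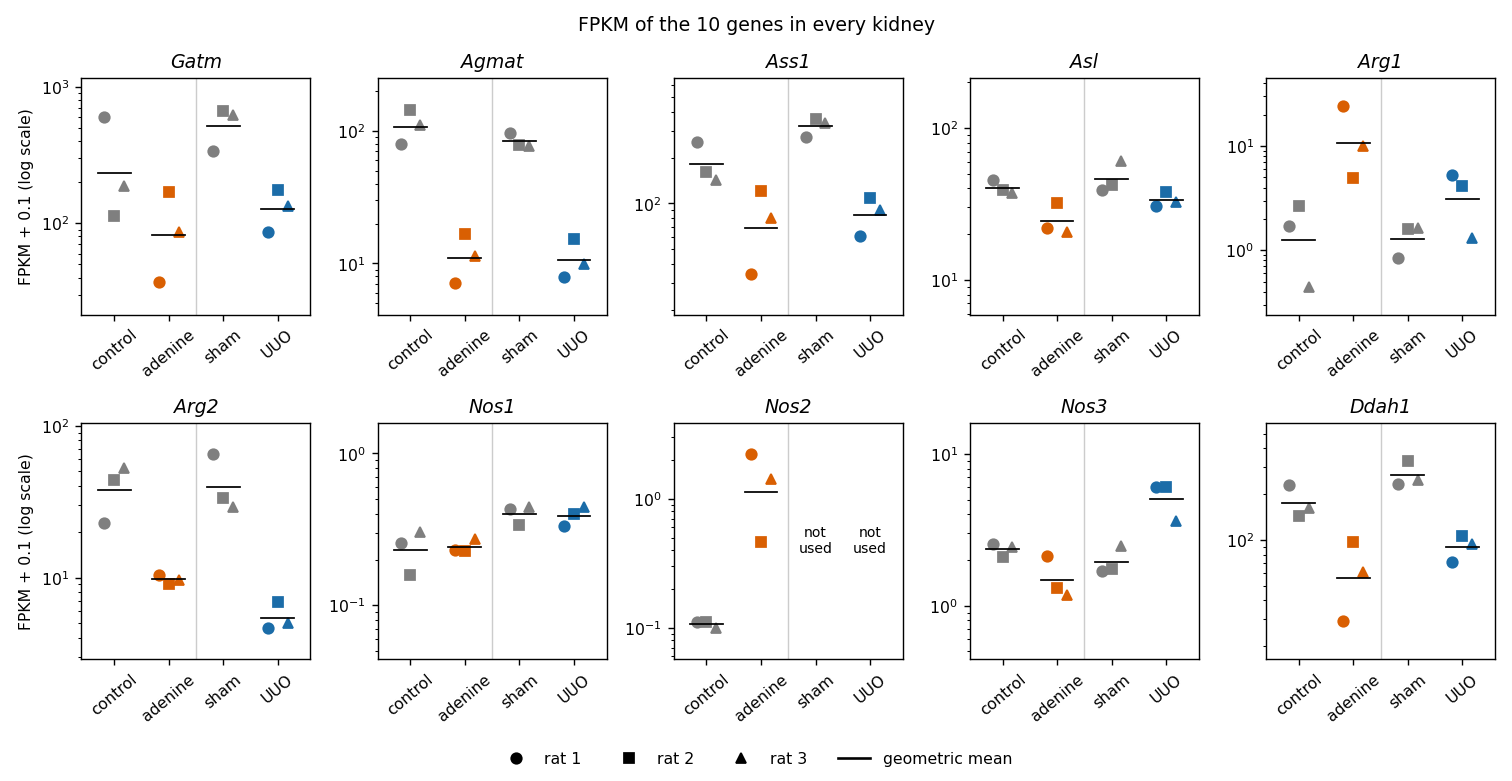
FPKM + 0.1 of each of the 10 genes on a log axis, with a range of its own in each panel, for control and adenine kidneys (left) and sham and UUO kidneys (right). Points are single kidneys with 1 symbol per rat number, and lines are geometric means. Agmat and Arg2 lie lower in every kidney of both models than in any reference kidney, whereas Gatm of control and adenine kidneys overlaps and Nos3 lies higher in all 3 UUO kidneys.

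**Figure D2:**
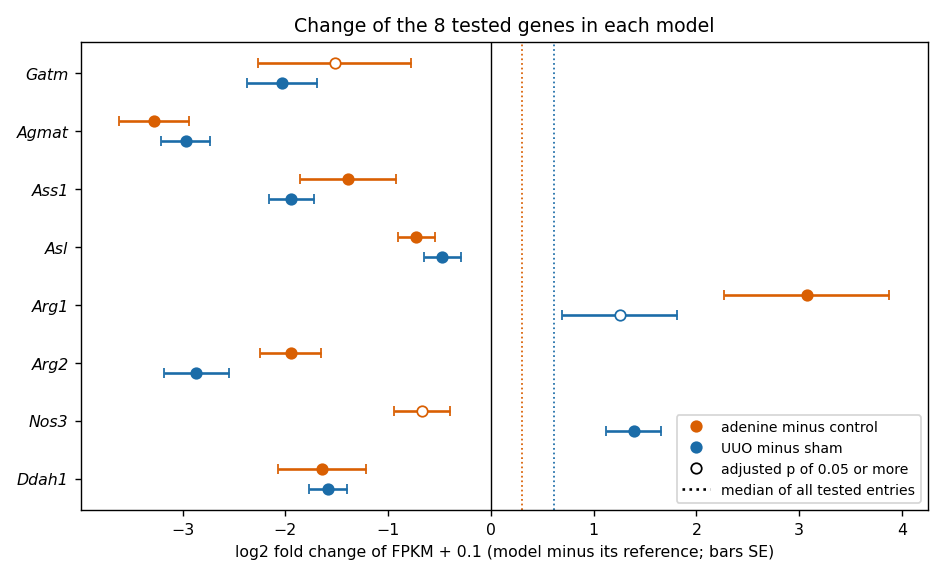
Log2 fold change of the 8 tested genes with adenine (orange) and with UUO (blue), with SE as bars, open symbols where adjusted p was 0.05 or more and dotted lines at the medians of all tested rows (0.30 and 0.62). Nos3 lies at -0.67 with adenine and 1.39 with UUO, Arg1 at 3.07 and 1.25 with wide error bars, and the other 6 genes lie below 0 in both models.

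Argininosuccinate synthase (Ass1) joins citrulline to aspartate, and argininosuccinate lyase (Asl) then releases arginine. FPKM of Ass1 was 255, 161 and 144 in the control kidneys and 34.0, 120.0 and 79.6 in the adenine kidneys. The groups did not overlap, but the highest adenine kidney came close to the lowest control kidney. The log2 fold change was -1.39 (SE 0.46, adjusted p = 0.0373), and this call was lost under 10 of 15 alternatives, 5 of which left out 1 kidney each. Leaving out control rat 1, 2 or 3 gave adjusted p of 0.11, 0.0697 and 0.0565, and leaving out adenine rat 1 or 3 gave 0.0516 and 0.0751. In the other model FPKM of Ass1 was 274, 362 and 339 in the sham kidneys and 60.8, 108 and 90.1 in the UUO kidneys. These groups stood well apart, with a log2 fold change of -1.94 (SE 0.22, adjusted p = 0.000301) that kept its call under all 15 alternatives.

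Asl fell in both models by smaller log2 fold changes than Ass1, a difference that was not tested. Its FPKM was 45.0, 38.9 and 37.3 in control kidneys and 22.0, 31.8 and 20.6 in adenine kidneys, a log2 fold change of -0.72 (SE 0.18, adjusted p = 0.0128) that lost its call with FPKM rescaled to the same sum (-0.45, adjusted p = 0.0626). In sham kidneys it was 39.1, 42.2 and 60.5, and in UUO kidneys 30.4, 37.7 and 32.4. The UUO kidneys all lay below the sham kidneys, though the nearest pair differed little, and the log2 fold change of -0.47 (SE 0.18, adjusted p = 0.0485) was just past the threshold. It was lost under 10 of 15 alternatives, among them leaving out sham rat 2 (adjusted p = 0.0622), sham rat 3 (log2 fold change -0.28, adjusted p = 0.0883), or UUO rat 1, 2 or 3 (0.134, 0.0501 and 0.114).

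Gatm was the most abundant member in every group by its mean. FPKM was 604, 112 and 188 in control kidneys and 37.0, 169.5 and 85.9 in adenine kidneys. The range of the control kidneys took in 1 of the 3 adenine kidneys, and the log2 fold change of -1.52 (SE 0.75, adjusted p = 0.12) did not pass the test or any of its 15 alternatives. It was -0.83 without control rat 1 and -0.95 without adenine rat 1. Sham and UUO kidneys were apart, with FPKM of 338, 666 and 617 in sham kidneys and 85.7, 176 and 134 in UUO kidneys. Gatm fell there by 2.03 on the log2 scale (SE 0.34, adjusted p = 0.0017). The UUO mean was 24.4% of the sham mean, and the adenine mean was 32.3% of a control mean that control rat 1 raised.

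Gamt, which completes creatine by methylation, fell in both models and showed less spread than Gatm. Its FPKM was 63.5, 91.8 and 74.2 in control kidneys and 15.6, 22.1 and 16.6 in adenine kidneys (log2 fold change -2.07, SE 0.19, adjusted p = 0.000189). In sham kidneys it was 78.3, 82.9 and 72.6 and in UUO kidneys 19.9, 23.7 and 18.9 (log2 fold change -1.90, SE 0.11, adjusted p = 2.52e-05). Ckb, the brain-type creatine kinase, rose by 1.38 and 1.3 on the log2 scale, and neither the creatine transporter Slc6a8 (-0.13 and -0.02) nor the mitochondrial kinase Ckmt1 (-0.13 and -0.15) passed the test. Of the 4 tested genes of the creatine list, 1 rose, 1 fell and 2 did not pass in each model (39.6% and 19.9% of all rows rose and fell with adenine, 56.1% and 14.4% with UUO).

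The arginases went in opposite directions in the adenine model. Arg2, the mitochondrial arginase, had FPKM of 22.9, 43.9 and 52.4 in control kidneys and 10.3, 9.02 and 9.60 in adenine kidneys. The adenine kidneys were close together and all below the lowest control kidney (log2 fold change -1.95, SE 0.30, adjusted p = 0.00156). In sham kidneys FPKM was 64.5, 33.2 and 28.9, and in UUO kidneys 4.57, 6.76 and 4.91, a log2 fold change of -2.87 (SE 0.32, adjusted p = 0.000259) and 12.8% of the sham mean. Both calls held under all 15 alternatives of their model.

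Arg1, the cytosolic arginase of the liver urea cycle that some macrophages also make, was low in reference kidneys. FPKM was 1.61, 2.57 and 0.342 in control kidneys and 24.2, 4.81 and 9.98 in adenine kidneys. Every adenine kidney was above every control kidney, with a spread of 5.04-fold among the adenine kidneys and 7.51-fold among the controls. The log2 fold change was 3.07 (SE 0.80, adjusted p = 0.015) and ranged from 2.32 to 3.63 as kidneys were left out in turn. In sham kidneys FPKM was 0.735, 1.48 and 1.52, and in UUO kidneys 5.21, 4.05 and 1.22. UUO rat 3 lay within the sham range, and the log2 fold change of 1.25 (SE 0.56, adjusted p = 0.0817) did not pass the test. It was 1.86 (adjusted p = 0.00601) without that kidney and 1.47 (adjusted p = 0.0442) with FPKM rescaled to the same sum.

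FPKM of Hbb, a hemoglobin gene, was set beside Arg1 in each kidney. It was 514, 689 and 231 in control kidneys, in the same order as Arg1, and 281, 637 and 546 in sham kidneys, where rat 2 was highest and Arg1 was highest in rat 3. The kidneys with the highest Arg1 of their groups, adenine rat 1 and UUO rat 1, also had the highest FPKM of Hbb, at 238 against 60.7 and 64.6 in the other adenine kidneys and 2069 against 297 and 602 in UUO rats 2 and 3, which stood in the opposite order for Arg1. Between groups Hbb went down in the adenine model (log2 fold change -2.15, adjusted p = 0.0221) while Arg1 rose. In the UUO model both had positive log2 fold changes, 0.64 for Hbb (adjusted p = 0.432) and 1.25 for Arg1 (adjusted p = 0.0817), and neither passed the test. The macrophage marker sum was 759, 472 and 674 FPKM in adenine rats 1 to 3, in the order of Arg1. In UUO rats it was 248, 209 and 211, highest in rat 1 as Arg1 was, with rats 2 and 3 in the opposite order. In control rats (21.6, 18.5 and 17.7) and sham rats (26.9, 22.7 and 18.8) rat 1 was highest, and Arg1 was highest in another rat. Of the hepatocyte markers, Alb, Cps1, Apoa1 and Serpina1 summed to at most 0.691 FPKM in control, 2.22 in adenine, 0.331 in sham and 1.65 in UUO kidneys. The part of red cells, hepatocytes and macrophages in the Arg1 values was not tested.

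The ornithine made by arginase is used by Oat (ornithine aminotransferase) and Odc1 (ornithine decarboxylase, which makes the polyamine putrescine), and both fell with Arg2. Oat had FPKM of 406, 513 and 582 in control kidneys and 41.4, 70.1 and 51.6 in adenine kidneys, a log2 fold change of -3.22 (SE 0.22, adjusted p = 7.7e-05). With UUO it went from 739.7, 522 and 437 to 61.6, 93.0 and 68.8, a change of -2.91 (SE 0.23, adjusted p = 7.11e-05). Slc25a15, the mitochondrial ornithine carrier, fell by 2.01 and 1.40 on the log2 scale. Aldh18a1 and Pycr1, which make proline, went the other way. Aldh18a1 rose by 1.94 and 2.75 on the log2 scale. Pycr1, near 0 in reference kidneys, was at 0.811, 0.677 and 0.422 FPKM in adenine kidneys, where it was not tested. It was at 0.0001, 0.0762 and 0.0001 in sham kidneys and 1.31, 0.809 and 0.578 in UUO kidneys. Only the UUO kidneys brought Pycr1 past the 0.5 FPKM filter of that test. The added 0.1 largely sets the size of its change, so no fold is given. The urea cycle and ornithine list had 3 genes that rose and 3 that fell of 6 tested in each model, with Pycr1 among the rises with UUO. Among all rows 39.6% rose and 19.9% fell with adenine, and 56.1% rose and 14.4% fell with UUO. The urea cycle enzymes Cps1 and Otc were at most 0.528 FPKM in all 12 kidneys.

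Agmat encodes agmatinase, which turns agmatine, decarboxylated arginine, into putrescine and urea, and it fell in both models. FPKM was 78.9, 142 and 109 in control kidneys and 7.08, 16.5 and 11.3 in adenine kidneys. No kidney of one group came near the other, the adenine mean was 10.5% of the control mean, and the log2 fold change was -3.28 (SE 0.34, adjusted p = 0.000324). In sham kidneys FPKM was 96.4, 78.3 and 76.1, and in UUO kidneys 7.81, 15.3 and 9.73. The UUO mean was 13.1% of the sham mean (log2 fold change -2.97, SE 0.24, adjusted p = 8.04e-05).

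Among the polyamine genes, Odc1 fell the most. Its FPKM was 192, 314 and 210.0 in control, 27.4, 32.3 and 27.1 in adenine, 272, 268 and 251 in sham, and 43.8, 44.8 and 43.7 in UUO kidneys. The log2 fold changes were -3.01 (SE 0.20, adjusted p = 6.43e-05) and -2.58 (SE 0.072, adjusted p = 5.53e-06). Smox, which oxidizes spermine, rose by 2.91 and 1.83 on the log2 scale, and Azin2, an antizyme inhibitor that keeps Odc1 from being degraded, rose by 1.82 and 2.31. Of 11 tested polyamine genes 3 rose and 4 fell in the adenine model (39.6% and 19.9% of all rows), and 3 rose and 1 fell in the UUO model (56.1% and 14.4% of all rows).

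In reference kidneys the NO synthases were, with Arg1, the least abundant members. Nos1, the neuronal type found in the macula densa, was at 0.157, 0.058 and 0.203 FPKM in control kidneys and 0.133, 0.127 and 0.172 in adenine kidneys. In the other table it was at 0.333, 0.239 and 0.343 in sham kidneys and 0.233, 0.300 and 0.341 in UUO kidneys. It was below the minimum for a test in both tables, and the groups overlapped. All 5 markers of the thick ascending limb (Slc12a1, Umod, Cldn10, Cldn16 and Kcnj1) fell in both models, where 19.9% of all rows fell with adenine and 14.4% with UUO. None of these markers is particular to the macula densa.

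Nos2, the inducible type, was at 0.0112, 0.0109 and 0 FPKM in control kidneys and 2.11, 0.367 and 1.32 in adenine kidneys. Every adenine kidney was above every control kidney. Since only 2 of 6 kidneys reached 0.5 FPKM, it was not tested, and the exact permutation p was 0.1, the smallest possible. Without the filter on low values limma gave adjusted p = 0.00421 for it. The size of the difference in mean log2 values depends on the pseudocount, from 1.09 with 1 to 5.96 with 0.01, so no fold is given.

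Nos3, the endothelial type, was the member whose change differed between the models. FPKM was 2.46, 1.99 and 2.34 in control kidneys and 2.01, 1.20 and 1.08 in adenine kidneys. Adenine rat 1 lay within the control range and the other adenine kidneys below it, and the log2 fold change of -0.67 (SE 0.27, adjusted p = 0.0686) did not pass the test. It passed without adenine rat 1 (-0.93, adjusted p = 0.0186), with median-of-ratios scaling (-0.95, adjusted p = 0.0229) and with quantile normalization (-1.22, adjusted p = 0.0111). In the UUO model FPKM was 1.60, 1.64 and 2.36 in sham kidneys and 5.91, 5.91 and 3.52 in UUO kidneys. All UUO kidneys were above the sham kidneys, with a log2 fold change of 1.39 (SE 0.27, adjusted p = 0.00323), which quantile normalization reduced to 0.58 (adjusted p = 0.116).

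The difference between the log2 fold changes of Nos3, UUO minus adenine, was 2.06 (SE 0.38, adjusted p = 0.00234 over 13486 genes), and it passed under all 21 alternatives, from 1.52 to 2.32. The same test called 27% of the 13486 genes. None of the other 7 members passed it. Arg2 came nearest, at -0.92 (SE 0.43, adjusted p = 0.13), and passed with quantile normalization (-1.28, adjusted p = 0.049). For Arg1 the difference was -1.82 (SE 0.98, adjusted p = 0.181), for Gatm -0.51 (SE 0.82, adjusted p = 0.673) and for Ass1 -0.55 (SE 0.51, adjusted p = 0.452). For Agmat, Asl and Ddah1 it was 0.30 (SE 0.42), 0.25 (SE 0.26) and 0.06 (SE 0.47). These errors leave room for differences of more than 1 log2 unit in either direction for Gatm, so the values do not show that the models act alike on it.

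Nos3 was set beside endothelial marker genes. Of the 7 tested, 2 rose and 4 fell in the adenine model (median log2 fold change -0.72), where 39.6% and 19.9% of all rows did (median 0.30). With UUO 4 rose and 1 fell (median 0.85), where 56.1% and 14.4% of all rows did (median 0.62), so the share that rose was near that of all rows. Their summed FPKM was 101 to 117 in control, 55.5 to 77.1 in adenine, 98.4 to 128 in sham and 169.9 to 212 in UUO kidneys. Tek and Egfl7 fell in the adenine model (-0.46 and -0.86) and rose in the UUO model (0.85 and 1.27). Cdh5 (0.84 and 2.48) and Tie1 (0.83 and 1.07) rose in both, and Vwf fell in both (-2.14 and -1.20). The part of these cells in the Nos3 values was not tested.

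**Figure D3:**
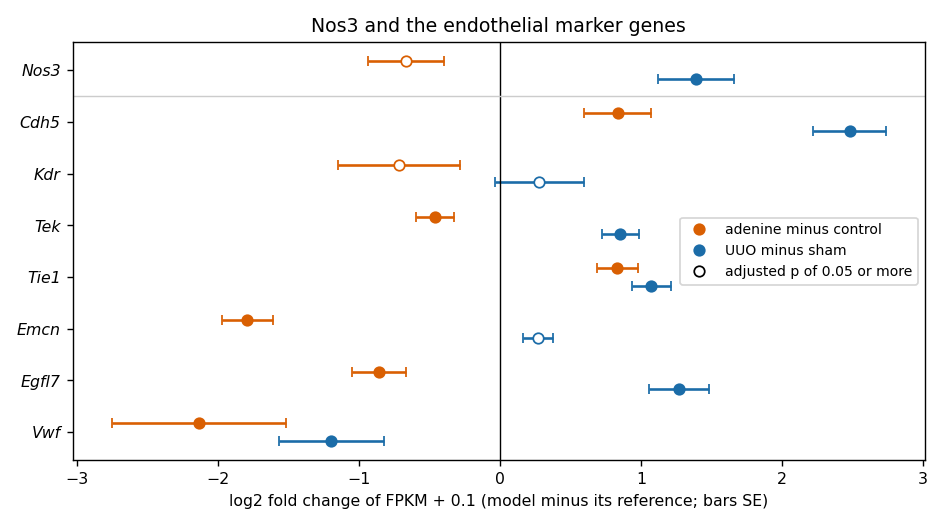
Log2 fold changes of Nos3 (top) and of the 7 tested endothelial marker genes in the adenine model (orange) and the UUO model (blue), with SE as bars and open symbols where adjusted p was 0.05 or more. In every gene the UUO value lies to the right of the adenine value, and Nos3, Kdr, Tek, Emcn and Egfl7 lie below 0 with adenine and above it with UUO, with only Tek and Egfl7 filled on both sides.

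Of the 7 genes for tetrahydrobiopterin, the cofactor of the NO synthases, 6 fell and 1 rose in each model. Among all rows 19.9% fell and 39.6% rose with adenine, and 14.4% fell and 56.1% rose with UUO. The median log2 fold change of the 7 genes was -1.74 and -1.49. The gene that rose was Gch1, GTP cyclohydrolase, the first enzyme of the synthesis, at 0.646, 0.471 and 1.10 FPKM in control, 4.54, 2.93 and 4.74 in adenine, 0.663, 0.391 and 0.669 in sham, and 4.02, 5.36 and 2.24 in UUO kidneys. Its log2 fold changes were 2.35 (SE 0.34, adjusted p = 0.00123) and 2.50 (SE 0.37, adjusted p = 0.000929). Gchfr, whose protein holds Gch1 in check, fell by 2.80 and 2.66 on the log2 scale.

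Of the genes for proteins that bind NO synthases, Dynll1 rose in both models (0.72 and 1.99). Hsp90aa1, a chaperone of the endothelial enzyme, fell in the adenine model (-0.50, adjusted p = 0.0467) and rose in the UUO model (0.94, adjusted p = 0.00481). Nostrin, which draws the enzyme away from the membrane, was at -0.65 in the adenine model (adjusted p = 0.247) and fell in the UUO model (-0.72, adjusted p = 0.00813). In this list 1 gene rose and 1 fell of 5 tested in the adenine model (39.6% and 19.9% of all rows), and 3 rose and 1 fell in the UUO model (56.1% and 14.4% of all rows).

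Ddah1 encodes the dimethylarginine dimethylaminohydrolase that breaks down asymmetric dimethylarginine, an inhibitor of NO synthases. FPKM was 228, 143 and 163 in control kidneys and 29.1, 96.7 and 61.5 in adenine kidneys. The groups did not overlap, with a log2 fold change of -1.65 (SE 0.43, adjusted p = 0.0145) that passed under all 15 alternatives. In sham kidneys FPKM was 234, 329.9 and 246 and in UUO kidneys 71.7, 106 and 93.2, a log2 fold change of -1.58 (SE 0.19, adjusted p = 0.000346). The adenine and UUO means were 35.0% and 33.4% of their reference means.

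Its relative Ddah2 rose in the UUO model and did not pass the test in the adenine model. FPKM of Ddah2 was 33.3, 45.2 and 50.2 in control kidneys and 51.4, 51.8 and 49.6 in adenine kidneys, where the log2 fold change was 0.27 (SE 0.16, adjusted p = 0.184). In sham kidneys it was 35.4, 33.5 and 35.4, and in UUO kidneys 93.7, 91.7 and 92.3, a log2 fold change of 1.41 (SE 0.070, adjusted p = 1.64e-05). Agxt2, an aminotransferase that also clears dimethylarginines, fell by 2.07 and 1.99 on the log2 scale. The methyltransferases Carm1 (0.99 and 0.77) and Prmt7 (1.00 and 0.92) rose in both models, and Prmt6 rose in the UUO model (1.12) and was at 0.36 (adjusted p = 0.166) in the adenine model. Of the 8 genes of arginine methylation and dimethylarginine breakdown, 3 rose and 1 fell in the adenine model, and 5 rose and 1 fell in the UUO model. The shares that rose were near the 39.6% and 56.1% of all rows, and 19.9% and 14.4% of all rows fell.

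The receptor for NO is soluble guanylate cyclase. Its subunit genes Gucy1a1 and Gucy1b1 rose in both models, by 2.52 and 3.27 and by 2.17 and 3.18 on the log2 scale. Gucy1b2, which encodes another beta subunit, had FPKM of 32.5, 50.8 and 22.2 in control and 0.0488, 0.194 and 0.187 in adenine kidneys, and of 19.8, 34.6 and 34.7 in sham and 0.141, 0.108 and 0.131 in UUO kidneys. Log2 fold changes of -7.16 (SE 0.39, adjusted p = 3.96e-05) and -6.99 (SE 0.26, adjusted p = 9.77e-06) were the largest falls of all the pathway genes tested. Of the 4 tested genes of this list, 3 rose and 1 fell in each model. Among all rows 39.6% rose and 19.9% fell with adenine, and 56.1% rose and 14.4% fell with UUO.

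Transporters of arginine went in both directions. Slc3a1, which forms with Slc7a9 the brush border carrier for cystine and basic amino acids, fell from 1455, 2357 and 2239 FPKM in control to 32.6, 98.6 and 70.7 in adenine kidneys (log2 fold change -5.01, SE 0.41, adjusted p = 0.000138). In the UUO model it fell from 2585, 1805 and 1835 to 85.4, 133 and 125 (-4.18, SE 0.22, adjusted p = 1.85e-05). Its partner Slc7a9 did not pass the test (-0.45 and -0.22). Slc7a2, a cationic amino acid transporter of macrophages and other cells, was higher in every adenine and UUO kidney than in the reference kidneys. FPKM was 0.172, 0.103 and 0.0277 in control kidneys and 14.2, 4.67 and 11.5 in adenine kidneys. In sham kidneys it was 0.372, 0.115 and 0.259, and in UUO kidneys 1.27, 1.14 and 1.36. Slc7a2 counted as a rise in both models, but only the adenine and UUO kidneys brought it past the 0.5 FPKM filter. The added 0.1 weighs on the size of these changes, so no fold is given. Slc7a7, of the basolateral side, rose by 3.62 and 1.16, with control kidneys at 23.8, 1.87 and 3.28 FPKM, and Slc7a6 rose by 1.78 and 2.50.

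Over all 8 lists around the members, 60 of 65 genes were listed and 52 tested. Of these, 20 rose and 18 fell in the adenine model (7 and 9 as DEGs), and 23 rose and 15 fell in the UUO model (8 and 6 as DEGs). Among all tested rows 39.6% rose and 19.9% fell in the adenine model, and 56.1% rose and 14.4% fell in the UUO model. The median log2 fold change was 0.03 and 0.19, below the medians of all rows. With median-of-ratios scaling 15 rose and 26 fell in the UUO model.

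**Figure D4:**
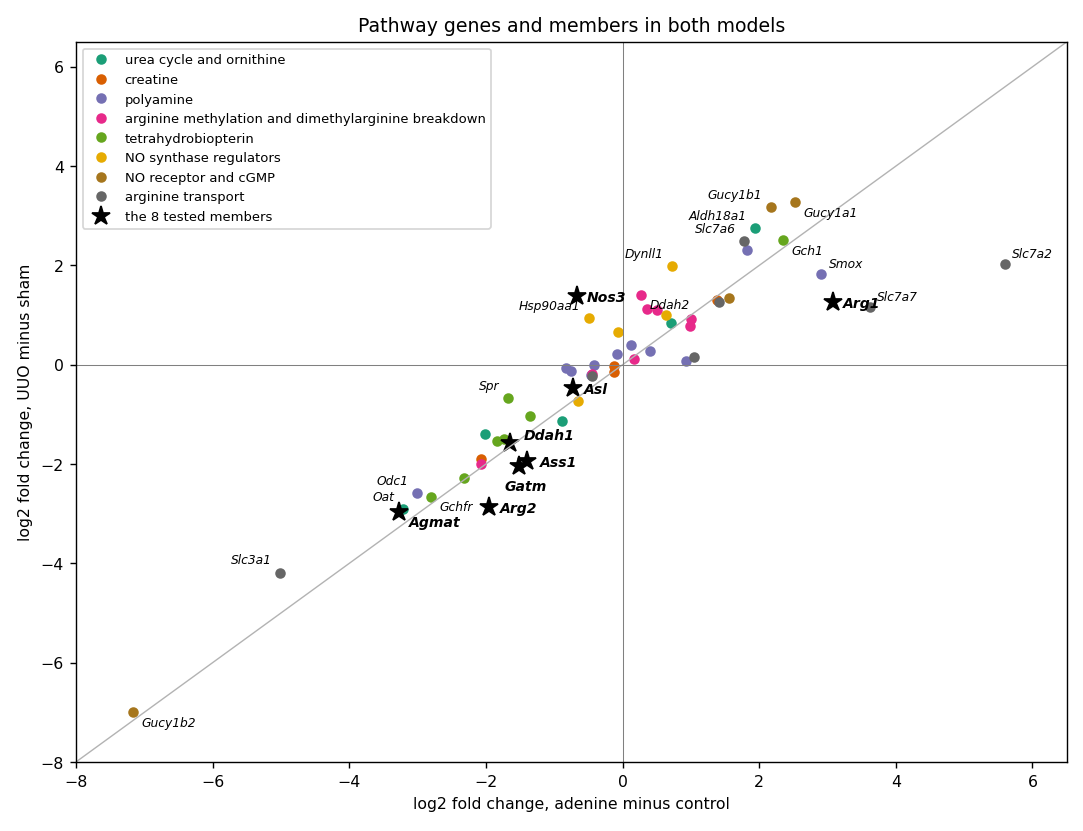
Log2 fold change in the adenine model (x axis) and in the UUO model (y axis) of the pathway genes tested in both tables, coloured by list, and of the 8 tested members (stars), with the grey diagonal marking equal change. Nos3 and Hsp90aa1 lie at the upper left, Slc7a2 far below the diagonal on the right, and Gucy1b2 and Slc3a1 at the lower left.

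The levels of the members kept much of one order. In control and sham kidneys the order by mean FPKM was Gatm, Ass1, Ddah1, Agmat, Asl, Arg2, Nos3, Arg1 and Nos1, with means from 301 and 540.4 for Gatm to 0.139 and 0.305 for Nos1, with Nos2 lower still in control kidneys. The ranges of Gatm and Ass1, of Ass1 and Ddah1, and of Asl and Arg2 overlapped in both groups, and those of Nos3 and Arg1 in control kidneys. Agmat, the fourth in the reference groups, was behind Asl in both models, and behind Arg1 in adenine kidneys, where their ranges overlapped.

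Kidneys of one group differed from each other in a pattern that several members shared. In adenine and UUO kidneys, Gatm, Ass1, Ddah1 and Agmat were all highest in rat 2 and lowest in rat 1. In the reference groups Agmat parted from the other 3 genes. Control rat 1 had the highest Gatm, Ass1 and Ddah1 but the lowest Agmat and Arg2, and sham rat 1 had the lowest Gatm, Ass1 and Ddah1 but the highest Agmat and Arg2. The proximal tubule marker sum was 2324, 1538 and 1724 in control rats 1 to 3, 176.4, 509.6 and 284 in adenine, 2175, 2523 and 2235 in sham, and 289, 553 and 351 in UUO rats. Gatm and Ddah1 ranked the 3 kidneys as this sum did in all 4 groups, Ass1 in 3 groups and Agmat in the adenine and UUO groups. Single markers differed in the reference groups. Slc34a1, Slc22a6 and Slc13a3 followed the sum in both, and Lrp2, Slc5a2 and Slc5a12 in control kidneys only. Aqp1 had the order of Agmat in both, at 504, 706 and 608 FPKM in control and 990, 755 and 562 in sham kidneys. Cubn was also lowest in control rat 1 and highest in sham rat 1. Slc5a2, a glucose transporter of the early proximal tubule, was uneven among the reference kidneys, at 13.7, 0.232 and 2.47 FPKM in control and 19.6, 3.06 and 29.9 in sham kidneys. These within-group orders are a description of 3 kidneys each, with no test, and the part of sampled tissue in them was not tested.

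**Figure D5:**
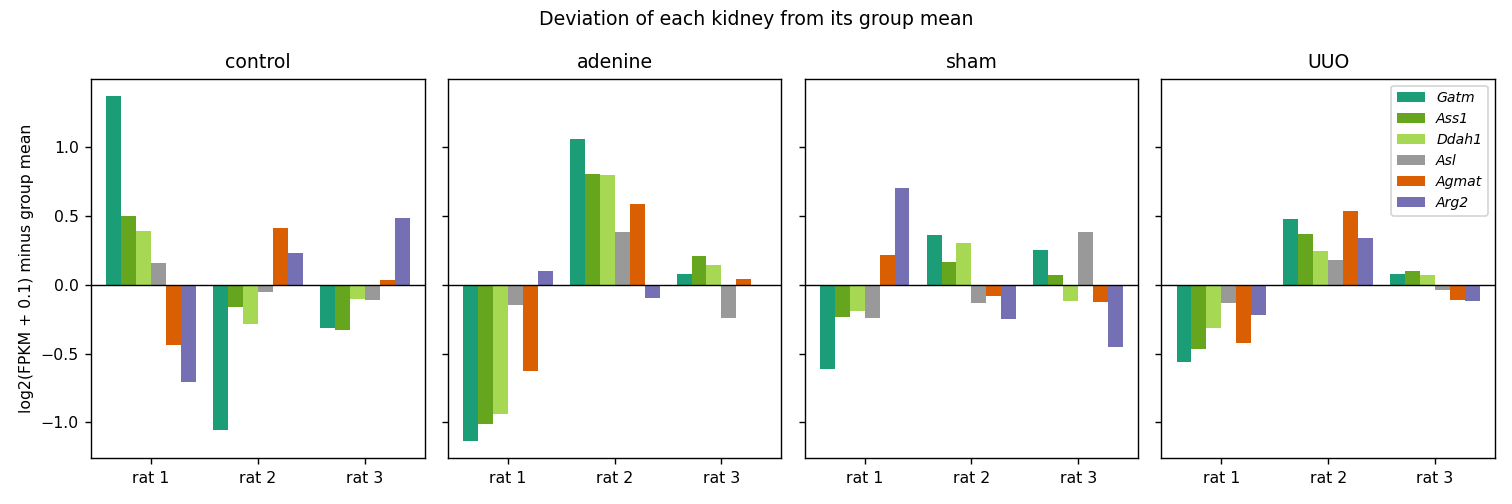
Deviation of log2(FPKM + 0.1) from the group mean in each of the 3 kidneys of the 4 groups, for Gatm, Ass1 and Ddah1 (greens), Asl (grey), Agmat (orange) and Arg2 (purple). The green bars of control rat 1 point up and its orange and purple bars down, those of sham rat 1 point the opposite way, and green and orange bars point the same way in rats 1 and 2 of the adenine and UUO groups.

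The gene most like each member over all 12 kidneys was sought among 12208 genes by Pearson's r of log2 values centred within each table, so that the contrast between groups is part of each r. For Agmat it was Ggt1, a brush border enzyme of glutathione breakdown (r = 0.997), for Ddah1 Acmsd, an enzyme of tryptophan breakdown (0.992), and for Ass1 Glyatl2, a glycine acyltransferase (0.991). For Arg2 it was Prr15 (0.989), for Gatm Prodh2, a hydroxyproline dehydrogenase (0.985), for Nos3 Cpne7 (0.955), for Asl Acsm3, an acyl-CoA synthetase (0.953), and for Arg1 Pfkl, a phosphofructokinase (0.928).

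Promoters are shown for the 4 members that shared the order in adenine and UUO kidneys and for Nos3, which differed between the models. RefSeq promoter entries of the GRCr8 assembly matched 7 of the 10 members. The 250 bases before the annotated start are printed 5′ to 3′ on the strand of the gene, with matches to any of 5 motifs in capitals. The Gatm window is at chr3:130129094-130129343 on the minus strand, Ass1 at chr3:35149480-35149729 on the plus strand, Ddah1 at chr2:237327562-237327811 on the plus strand, Agmat at chr5:159342925-159343174 on the plus strand and Nos3 at chr4:11706582-11706831 on the minus strand.
Gatm: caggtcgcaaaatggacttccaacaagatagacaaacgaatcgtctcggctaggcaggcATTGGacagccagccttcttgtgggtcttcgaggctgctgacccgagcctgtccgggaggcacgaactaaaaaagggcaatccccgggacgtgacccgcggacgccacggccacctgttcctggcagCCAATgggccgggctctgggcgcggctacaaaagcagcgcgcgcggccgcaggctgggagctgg
Ass1: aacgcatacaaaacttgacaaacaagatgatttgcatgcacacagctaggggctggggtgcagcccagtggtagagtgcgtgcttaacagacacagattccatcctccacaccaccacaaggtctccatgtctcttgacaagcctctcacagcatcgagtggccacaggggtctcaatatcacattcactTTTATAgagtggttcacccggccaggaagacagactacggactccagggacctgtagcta
Ddah1: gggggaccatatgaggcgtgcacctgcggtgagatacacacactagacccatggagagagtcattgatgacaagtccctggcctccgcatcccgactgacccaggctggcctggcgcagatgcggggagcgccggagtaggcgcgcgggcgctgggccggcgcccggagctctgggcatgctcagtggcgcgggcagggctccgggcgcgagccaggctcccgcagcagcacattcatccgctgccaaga
Agmat: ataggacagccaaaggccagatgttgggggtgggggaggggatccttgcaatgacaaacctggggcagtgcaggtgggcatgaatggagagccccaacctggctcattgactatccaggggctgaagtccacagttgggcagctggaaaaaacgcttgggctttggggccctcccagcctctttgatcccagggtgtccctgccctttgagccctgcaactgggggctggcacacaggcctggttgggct
Nos3: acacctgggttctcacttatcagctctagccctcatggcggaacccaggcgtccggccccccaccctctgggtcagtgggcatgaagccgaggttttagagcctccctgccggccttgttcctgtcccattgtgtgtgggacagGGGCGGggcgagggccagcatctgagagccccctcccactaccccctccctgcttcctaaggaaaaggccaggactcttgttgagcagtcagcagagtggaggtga

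The motifs were searched on both strands in the same window of all 33469 entries. The letters TATAAA of the core promoter box stood in 12.9% of them, the letters CCAAT in 34% and the GC-rich box GGGCGG in 30.5%. For HNF1 and HNF4, transcription factors of the proximal tubule, the letters GTTAAT stood in 6.45% and the letters CAAAGTCCA in 0.338%. The Gatm window held CCAAT at 2 places, at bases -64 to -60 and, on the opposite strand, -191 to -187 from the start. Ass1 held TATAAA on the opposite strand at -60 to -55, Nos3 the GC-rich box at -106 to -101, and Agmat and Ddah1 no match. No motif was shared by these windows, which says only that these letters do not recur in them. GC content was 63.6% for Gatm, 51.2% for Ass1, 68.8% for Ddah1, 60.4% for Agmat and 62.4% for Nos3, beside a median of 51.2% over all entries.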

How the data were processed

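Kidney RNA of 12 rats in 4 groups of 3 was measured by sequencing of stranded poly(A) libraries, and samples were grouped by their labels. The authors deposited FPKM per gene in 2 tables, 1 with the control and adenine kidneys and 1 with those after sham surgery or UUO. The submitters' processing notes name cutadapt 1.9, HISAT2 2.0.4, StringTie 1.3.4d, edgeR and DESeq2. The genome build is not given in the sources used here, so genes are identified by symbol, and depth is unknown. FPKM is relative to all mapped fragments, so a change in the most abundant genes shifts the others.

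Each table was fitted by itself with limma 3.58.1 (lmFit, eBayes with a trend, R 4.3.3) on log2(FPKM + 0.1), for rows reaching FPKM 0.5 in 3 or more of 6 samples, with Benjamini-Hochberg adjustment over all tested rows. Thresholds for DEGs (adjusted p under 0.05, absolute log2 fold change of at least 2) are those of the study's methods. The models were compared by the difference of their log2 fold changes over the root of the summed squared SE, as t with the degrees of freedom of both fits added, which takes the tables' errors as independent. The script was tested on simulated data. Single genes were compared by two-sided exact permutation over 10 splits. Counts, orders and figures used Python 3.11.15, pandas 2.3.3, scipy 1.17.1 and matplotlib 3.10.9.

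The members and gene lists were chosen with earlier results of these data known. Pathway genes were named by rule: in each list and model the 2 largest rises and 2 largest falls that passed, with Gamt, Ddah2, Gch1, Otc and Odc1, and the most similar gene of each member. Other list genes and markers were named after their values were seen. A gene that this rule takes in is not reported here by name. Alternatives were other pseudocounts (1 and 0.01), other filters (none, or FPKM 1), other scalings (median of ratios, quantiles, a common sum), eBayes without trend, a replicate block and leaving out each kidney.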

Additional observations from a re-analysis of the deposited data

Results flagged for a closer look

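Of 35 members and named pathway genes, 8 had log2 fold changes that differed between the models by the test of the difference (UUO minus adenine, adjusted over 13486 genes). The same test called 27% of all 13486 genes. Many of the named genes were picked for large changes in these same fits, so no conclusion is drawn from setting the shares side by side. For Nos3 the difference was 2.06 (SE 0.38, adjusted p = 0.00234). It was positive as well for Hsp90aa1 (1.44, adjusted p = 0.00236), Dynll1 (1.27, adjusted p = 0.00152), Ddah2 (1.14, adjusted p = 0.00082), Gucy1b1 (1.01, adjusted p = 0.047) and Oaz2 (0.77, adjusted p = 0.00696), a gene for an antizyme of Odc1 that fell in the adenine model (-0.83) and was at -0.06 in the UUO model. It was negative for Slc7a2 (-3.56, adjusted p = 0.00149) and Smox (-1.08, adjusted p = 0.024), which rose in both models.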

How the results depend on the processing

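Of 573 values recomputed under alternatives, 523 counted as the same. Tested values had to keep their side of the threshold, untested differences to stay within the spread, and counts of genes to stay within a set ratio. Of the others, 22 lost their call, 6 gained one and 11 moved past the spread or ratio. Sign was not followed for untested members, and the Nos1 difference ran from -0.308 to 0.270 with adenine and from -0.806 to 0.118 with UUO. Among tested values 11 changed sign, all of them differences between the models that passed no test. The difference changed sign for Agmat (-0.017) and Ddah1 (-0.070) with quantile normalization and for Asl (-0.052) and Ddah1 (-0.24) with median-of-ratios scaling. As kidneys were left out in turn it ran from -1.20 to 0.015 for Gatm, -0.0095 to 0.60 for Agmat and -0.40 to 0.46 for Ddah1. In the adenine model 2 members rose with no filter, where Nos2 was tested, and 3 fell with FPKM rescaled to the same sum. In the UUO model 0 members rose with quantile normalization (limma, where Nos3 had adjusted p = 0.116) and 2 with a common sum, and between 1 and 2 as kidneys were left out, with 2 only without UUO rat 3, when Arg1 passed. Median-of-ratios scaling gave 15 pathway genes that rose and 26 that fell in the UUO model. The cause was not tested.

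The replicate numbers name different rats and pair none. With a replicate block, Ass1 in the adenine model (adjusted p = 0.0718) and Asl in the UUO model (adjusted p = 0.0518) lost their calls, and no other member gained or lost one. Depth is unknown, so no detection limit can be given for Nos1 and Nos2.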
